A study of Homo sapiens with 43 samples.

Results

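The 4 HOX gene clusters were examined in peak lists from lung squamous cell carcinoma cell lines. The members were all peaks of 27 lists that overlap the HOXA, HOXB, HOXC or HOXD cluster on hg19 with 20 kb added on each side. They number 510 of 650700 peaks: 480 H3K27ac peaks from 17 lists, 25 Sox2 peaks from 7 lists, 4 p63 peaks from 1 list and 1 Brn2 peak from 2 lists. By cluster, 173 lay in the HOXA window (chr7:27112000-27270000), 129 in the HOXB window (chr17:46586000-46827000), 132 in the HOXC window (chr12:54312000-54470000) and 76 in the HOXD window (chr2:176937000-177076000). The windows span 158, 241, 158 and 139 kb.

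HOX genes encode homeodomain transcription factors that give cells their position along the head-to-tail axis of the embryo. Genes of a cluster are numbered in order, and low-numbered genes act toward the head and high-numbered genes toward the tail. Cells of adult tissues keep some of this positional code, and many tumours express HOX genes outside it. Unused HOX clusters are typically held silent by Polycomb proteins, which methylate the same lysine of histone H3 (K27) that is acetylated at active promoters and enhancers, so H3K27ac peaks mark stretches that are in use.

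ChIP-seq was performed for H3K27ac, for Sox2 (a factor of stem and progenitor cells), for Brn2 (a neural POU factor) and for p63 (a lineage factor of squamous epithelia). The unmodified lines fall into 3 sets by what was mapped in them. LK2 and NCI-H520 were profiled for both Sox2 and Brn2 (set A). HCC2814, HCC95 and KNS62 were profiled for Sox2 but not Brn2 (set B). Only H3K27ac was profiled in Calu-1, EBC-1, HARA, HCC2279, HCC2450, LC-1/SQSF, NCI-H2887 and SQ-1, the 8 lines of set C. Membership does not say which factors a line expresses. LK2_GFP and LK2_DNp63 are 2 derivatives of LK2, named by the labels after a fluorescent protein and an isoform of p63. The labels do not say how they were made or whether they are single clones, and no line was given a treatment. All were grown in the same medium with serum. The labelled cell type could not be checked against marker genes, because no annotation of the files' build was used here.

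LK2 and NCI-H520 have 2 H3K27ac libraries each, averaged to 1 value per line; every other list is 1 library. The number of H3K27ac peaks per list ranged from 16470 to 43480, and their summed length from 24.6 to 73.7 Mb. Their read depth is unknown. Among unmodified lines, LK2 had the shortest lists in total length (26.9 Mb as a mean of 2), followed by HCC2814 (31.6 Mb) and NCI-H2887 (35.4 Mb). Covered lengths are therefore given as listed and, where said, scaled to a common list total of 53.0 Mb. Positions along a cluster are in kb from its low-numbered edge, the end where the gene numbers are smallest, with genes named only by their order.

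Sequence from RefSeq (GRCh38.p14) shows 2 features of the clusters: microRNA genes between HOX genes, and promoters that differ in CpG content. They are given as background and were not compared with the peaks, which are on hg19. The table used here places 8 microRNA genes between HOX genes. 3 of these carry a mature microRNA with 1 shared seed (bases 2 to 8, in capitals), in 3 different clusters. miR-196b-5p comes from between HOXA9 and HOXA10, and miR-196a-5p from 2 genes, between HOXB9 and HOXB13 and between HOXC9 and HOXC10. miR-10a-5p comes from between HOXB4 and HOXB5 and has another seed.
hsa-miR-196b-5p: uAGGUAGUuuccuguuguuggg
hsa-miR-196a-5p: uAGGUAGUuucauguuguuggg
hsa-miR-10a-5p: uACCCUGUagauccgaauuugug

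Of the 39 HOX genes, 20 had a promoter in the table, with 1 sequence shared by HOXC4 and HOXC5 (300 bases, 250 before to 50 after the start). Their median number of CpG dinucleotides was 22.5, against 14 for all 27305 promoters, with a median GC content of 58.0% against 58.3%. HOXA13, the high-numbered end of HOXA, had the most CpG (44) and HOXD4 the fewest (4). The 250 bases before each start are shown for these promoters, chosen for their CpG counts alone. Capitals mark CpG.
HOXA13: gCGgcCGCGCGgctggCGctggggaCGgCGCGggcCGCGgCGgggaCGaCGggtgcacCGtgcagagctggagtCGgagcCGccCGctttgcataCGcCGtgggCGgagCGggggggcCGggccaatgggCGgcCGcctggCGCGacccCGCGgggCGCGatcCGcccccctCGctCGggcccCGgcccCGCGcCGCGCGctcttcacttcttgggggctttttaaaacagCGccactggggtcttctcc
HOXD4: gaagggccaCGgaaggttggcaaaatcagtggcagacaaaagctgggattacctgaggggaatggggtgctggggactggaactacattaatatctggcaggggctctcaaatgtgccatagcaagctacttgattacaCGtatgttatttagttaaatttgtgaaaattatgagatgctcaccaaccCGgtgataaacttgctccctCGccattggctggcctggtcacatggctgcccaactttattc

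The promoters were searched on both strands for 4 motifs, none of which overlaps another in these 20 promoters. The SOX core CATTGT was in 0 of 20 HOX promoters and in 10.97% of all promoters. The octamer ATGCAAAT, read by POU factors, was in 1 of 20 (HOXA10) and in 1.80% of all. The homeodomain core TAATTA was in 2 of 20 (HOXD3 and HOXD11) and 4.98% of all, and TTTATGG, a motif of high-numbered HOX proteins, was in 1 of 20 (HOXD8) and 2.66% of all. The HOXA10 promoter is shown with the octamer in capitals, on the opposite strand.
HOXA10: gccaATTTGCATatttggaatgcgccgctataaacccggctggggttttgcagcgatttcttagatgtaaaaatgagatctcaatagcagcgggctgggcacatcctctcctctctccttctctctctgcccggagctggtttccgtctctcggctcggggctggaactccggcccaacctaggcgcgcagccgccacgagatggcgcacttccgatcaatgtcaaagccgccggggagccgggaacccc

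As a mean over the 13 lines, HOXA carried the most H3K27ac of the 4 clusters (20.3 kb), and in kb the lines differed most there (SD 14.1 kb). It was not the highest cluster in NCI-H520, LC-1/SQSF, HCC2450 or Calu-1. NCI-H2887 had 51.6 kb of the HOXA window covered and LK2 42.9 kb. HARA followed with 27.8 kb, HCC95 with 24.8 kb, KNS62 with 24.6 kb, NCI-H520 with 18.3 kb, SQ-1 with 15.6 kb, EBC-1 with 15.0 kb, HCC2279 with 13.2 kb, HCC2814 with 12.2 kb and LC-1/SQSF with 10.9 kb. Calu-1 (3.83 kb) and HCC2450 (3.72 kb) were lowest. NCI-H2887 and LK2 thus stood apart from the other 11 lines, although the summed length of their lists is among the shortest; by number of peaks the NCI-H2887 list is the longest (43480). Relative to the share of the genome that each list covers, HOXA was enriched 30.9 times in LK2 and 28.0 times in NCI-H2887. HARA was next at 8.76 times, and HCC2450 was lowest at 0.970 times. The 2 LK2 libraries gave 41.6 and 44.2 kb and those of NCI-H520 18.8 and 17.9 kb, so the gap between these lines was far larger than between repeats.

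**Figure D1:**
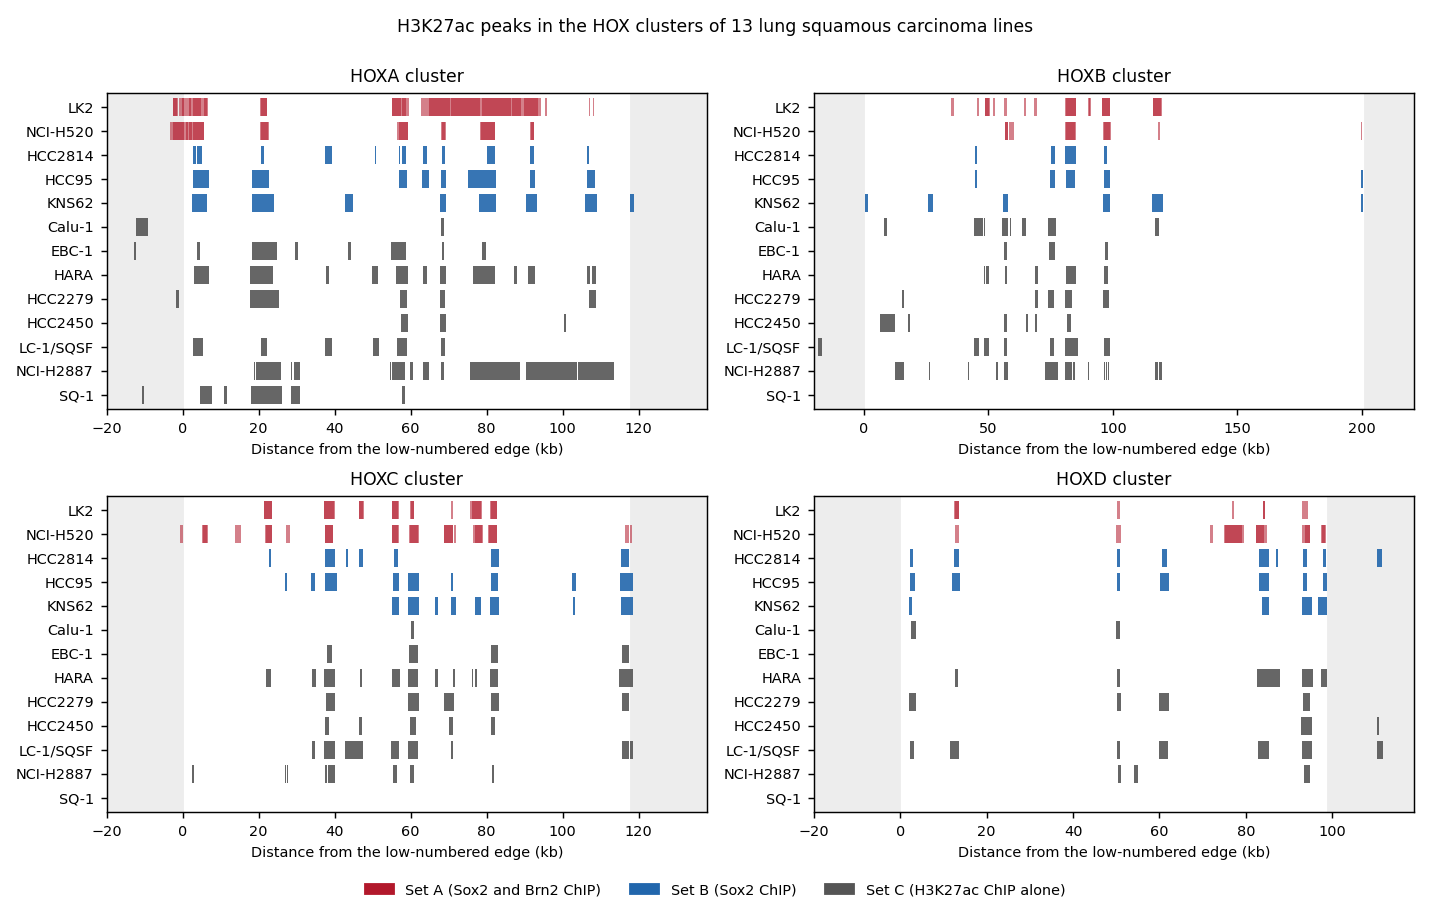
H3K27ac peaks (bars) in 13 lines (rows, coloured by set) along each cluster, in kb from the low-numbered edge; grey bands are the added 20 kb and lighter red marks peaks of 1 of 2 libraries. LK2 and NCI-H2887 have unbroken or nearly unbroken stretches in the high-numbered side of HOXA, and SQ-1 has no peak in HOXB, HOXC or HOXD.

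The excess in LK2 and NCI-H2887 came from wide domains. In LK2 replicate 2, a single peak of 23671 bp ran from 70.7 to 94.3 kb of HOXA (chr7:27202661-27226331) and was the second widest of all 16470 peaks of that list. In LK2 replicate 1 the same stretch was listed as several peaks, the widest of 7785 and 7747 bp, ranked 14 and 15 of 30641 by width. A peak of 23731 bp in LK2_GFP and of 23827 bp in LK2_DNp63 was the widest of its whole list. LK2 and its derivatives therefore carried the domain in all 4 libraries.

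NCI-H2887 had a different extent. Its peaks ran with short gaps from 75.7 to 113.5 kb, and the widest of them, 12993 bp (chr7:27207734-27220726), ranked 5 of 43480. A further peak of 9447 bp reached from 104 to 113.5 kb and ranked 25. Each cluster was divided into 3 parts of equal length. In the high-numbered part of HOXA (39.3 kb), 32.7 kb was covered in NCI-H2887 and 15.5 kb in LK2, against 9.97 kb in KNS62 as the next line, a median of 3.67 kb over the 13 lines and 0 in Calu-1, LC-1/SQSF and SQ-1. In the middle part LK2 had most, with 18.3 kb, next to 9.63 kb in NCI-H2887. NCI-H520, the other set A line, had 4.44 kb in the high-numbered and 3.98 kb in the middle part, so the wide domain was not shared by both set A lines.

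**Figure D2:**
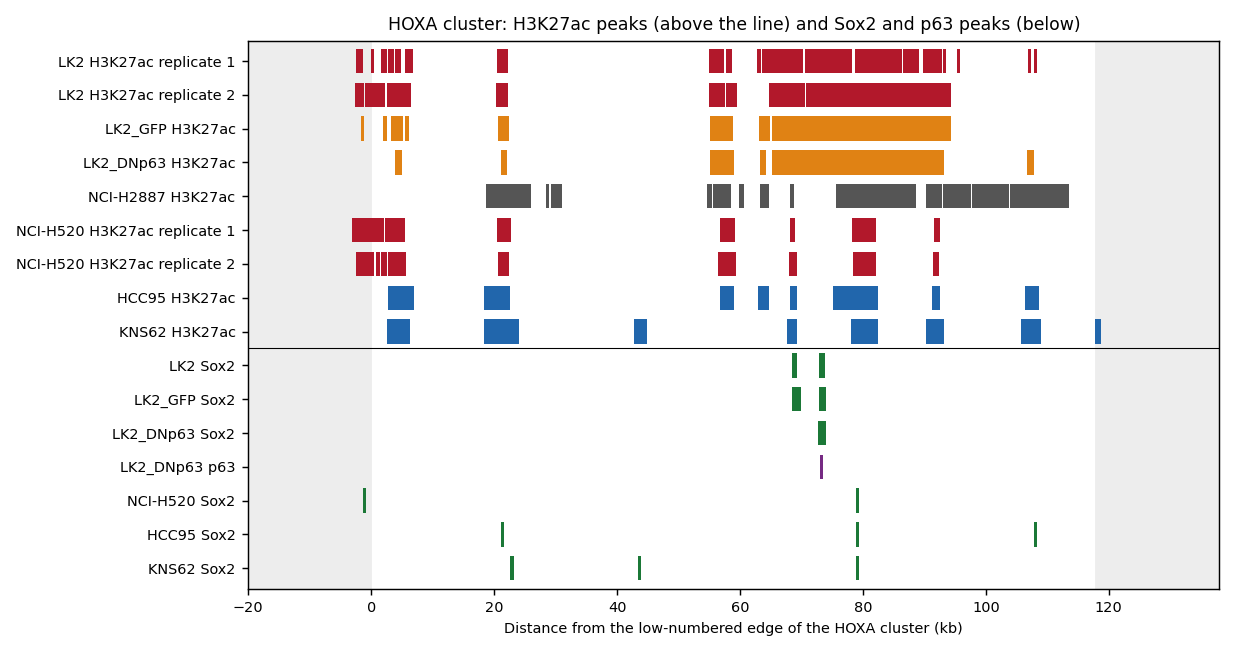
H3K27ac peaks (above the line) and Sox2 (green) and p63 (purple) peaks (below it) along the HOXA cluster in kb from its low-numbered edge, a row for each library. The LK2 libraries and both derivatives share a domain to 94.3 kb or close to it, NCI-H2887 has peaks from 75.7 to 113.5 kb, and the Sox2 peaks at 72.7 to 74 kb are in LK2 and its derivatives.

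SQ-1 showed the reverse layout. All 7 of its HOX peaks lay in the HOXA window, with 14.1 kb in the low-numbered part, the most of any line, 0.925 kb in the middle part and none in the high-numbered part. Its widest HOX peak was 8028 bp (18.1 to 26.1 kb). SQ-1 had no peak in the HOXB, HOXC and HOXD windows, while its list covered 50.2 Mb of the genome, close to the common total. The lean to the low-numbered part of HOXA was not particular to SQ-1. EBC-1, HCC2279 and LC-1/SQSF had 7.97, 7.76 and 6.04 kb in that part. In the high-numbered part they had 1.16, 1.69 and 0 kb.

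HOXB was covered for 19.9 kb in NCI-H2887, 16.1 kb in LC-1/SQSF, 15.95 kb in LK2, 14.7 kb in Calu-1, 12.98 kb in KNS62 and 11.1 kb in HCC2450. The others with peaks had 4.86 kb (EBC-1) to 10.3 kb (HCC95), and SQ-1 had 0. Peaks sat in the low-numbered and middle parts. The high-numbered part had none in 10 lines and at most 1.03 kb. The widest HOXB peak, 5648 bp at 6.7 to 12.4 kb, was in HCC2450. It formed a region found in Calu-1 and HCC2450 alone (chr17:46612719-46618366), whose whole extent is that of the HCC2450 peak. These 2 lines had the lowest HOXA coverage yet 9.68 and 8.64 kb in the low-numbered part of HOXB, against a median of 2.94 kb over the lines. They shared only 2.36 kb over the whole HOXB window, so most of these lengths lay at different positions.

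HOXC was covered for 18.8 kb in NCI-H520, 18.3 kb in HARA, 16.5 kb in LC-1/SQSF, 15.5 kb in HCC95, 14.9 kb in KNS62, 13.1 kb in LK2, 12.2 kb in HCC2279 and 10.2 kb in HCC2814. It was lower in EBC-1 (6.92 kb), NCI-H2887 (5.69 kb), HCC2450 (5.12 kb), Calu-1 (0.792 kb) and SQ-1 (0). As listed, NCI-H2887 was highest of 13 lines in HOXA and HOXB and 10th in HOXC. After scaling, LK2 was highest in HOXA (85.4 against 77.4 kb) and HOXB (31.3 against 29.9 kb), and NCI-H2887 was 9th in HOXC. The widest HOXC peak, 4687 bp at 42.7 to 47.4 kb, was in LC-1/SQSF.

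HOXD had the least in kb, with a median of 6.57 kb over the 13 lines against 10.3 kb in HOXB. Its window is also shorter (139 against 241 kb), and the order did not hold in every line. HARA, NCI-H520 and HCC2814 had more in HOXD than in HOXB. LC-1/SQSF had 12.1 kb, HARA 10.5 kb, NCI-H520 10.2 kb, HCC95 9.85 kb, HCC2814 8.88 kb, and KNS62 and HCC2279 6.57 kb each. HCC2450, NCI-H2887, LK2 and Calu-1 had 2.97, 2.89, 2.82 and 2.08 kb, and EBC-1 and SQ-1 had 0. In NCI-H520, HOXD coverage was concentrated in the high-numbered part, with 9.16 kb of its 33.0 kb. The repeats of NCI-H520 differed more here (7.58 and 12.9 kb) than in HOXA, HOXB or HOXC. The widest HOXD peak, 5237 bp at 82.6 to 87.8 kb, was in HARA. LK2, wide in HOXA, had only short HOXD peaks, the longest of 1312 bp.

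Lines shared short stretches rather than whole clusters. Of 696 stretches of 1 kb, 491 had a peak over at least 500 bp in no line, 89 in 1 line and 34 in 7 or more. These counts were not made over the whole genome. No stretch was marked in all 13 lines, and in HOXB, HOXC and HOXD none could be, since SQ-1 had no peak there. The most recurrent, at 68 to 69 kb of HOXA, was marked in 12 lines, the exception being SQ-1. In HOXA, 21 to 22 kb and 58 to 59 kb were marked in 11 lines, as was 60 to 61 kb of HOXC. In HOXB 97 to 98 kb and in HOXD 93 to 94 kb were marked in 10. Of the 35 HOXA stretches marked in 1 line, NCI-H2887 held 15 and LK2 10.

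**Figure D3:**
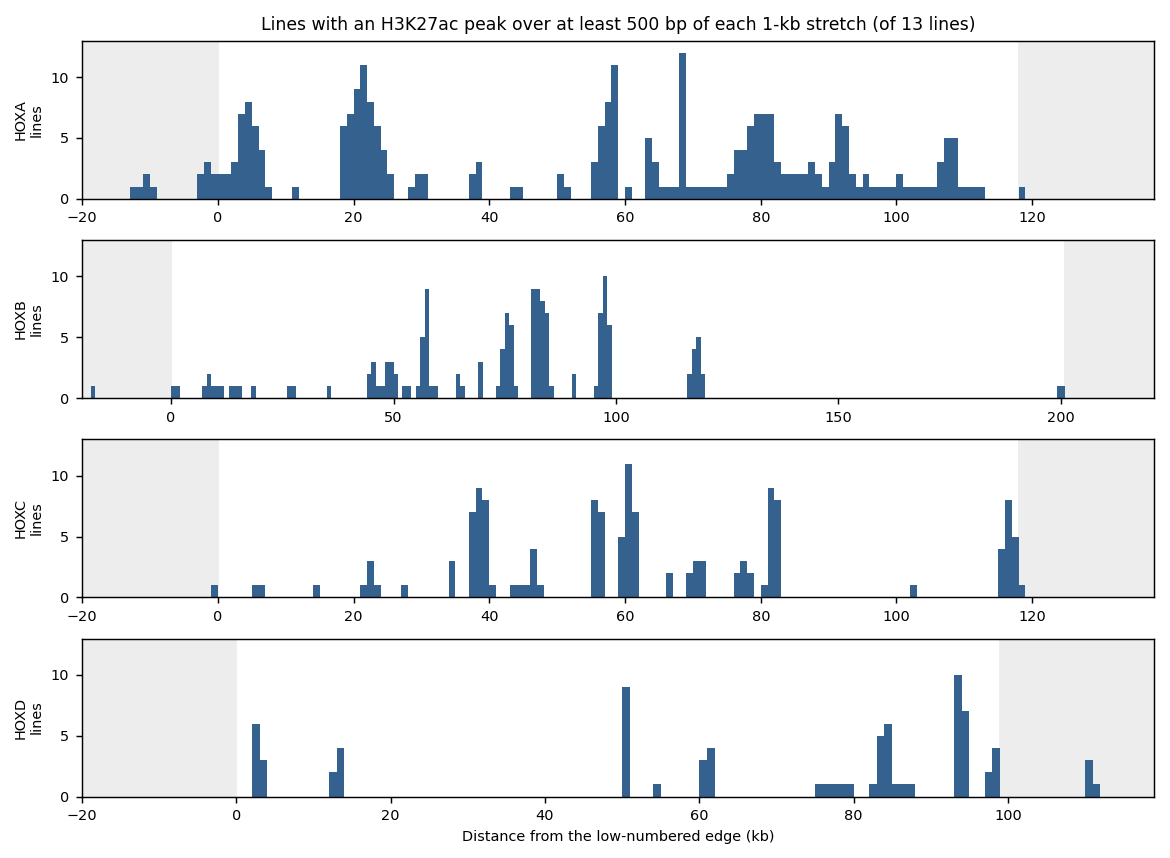
Number of the 13 lines (y axis) with an H3K27ac peak over at least 500 bp of each 1-kb stretch along the clusters (x axis, kb from the low-numbered edge; grey bands are the added 20 kb). The tallest bar, at 68 to 69 kb of HOXA, reaches 12 lines.

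Merging the peaks of the 13 lines gave 70 HOX regions. No HOX region occurred in every one of the 13 lines (0 of 70), and 20 (28.6%) belonged to a single line. In HOXB, HOXC and HOXD the first count was fixed by SQ-1, which had no peak there. Over the genome, 6.64% of 114149 regions were in all 13 lines and 50.7% in 1 line. One HOX region (1.43%, against 1.84% of all regions) was in both set A lines and no other line, at 75 to 79.6 kb of HOXD (chr2:176976379-176981046). It was small in LK2, where a 471-bp peak of replicate 1 was its only part. One region (1.43%, against 0.963% of all regions) was found in 2 or more set B lines alone, HCC95 and KNS62, at 102.4 to 103.4 kb of HOXC. 6 regions (8.57%, against 12.3% of all regions) were found in 2 or more set C lines alone, 4 of them in HOXA. A region has the extent of its merged peaks, and its lines can share less. The widest in HOXA (98.1 to 103.8 kb, 5683 bp) joined peaks of HCC2450 and NCI-H2887. HCC2450 had only 0.542 kb in the whole high-numbered part of HOXA. The other 3 in HOXA joined peaks of Calu-1 and SQ-1 (-12.2 to -9.1 kb), of NCI-H2887 and SQ-1 (28.4 to 28.9 kb) and of EBC-1, NCI-H2887 and SQ-1 (28.9 to 31 kb). Calu-1 and SQ-1 shared 0.566 kb over the whole HOXA window. The 2 in HOXB were that of Calu-1 and HCC2450 and a region of HCC2279 and NCI-H2887 at 12.7 to 16.4 kb.

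As a measure of likeness, the Jaccard index (shared over combined length) over the 4 windows was 0.735 between the LK2 repeats and 0.670 between those of NCI-H520. The most alike lists of different lines were HCC95 and HARA, with 0.542 over all windows and 0.687 in HOXA. LK2 and NCI-H520 had indices of 0.340 to 0.384, well below their repeats. Pairs of other lines lay both above and below these values, and no index was computed over the whole genome.

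The sets were first compared by the scaled covered length per cluster, with two-sided exact permutation tests over lines. None of the 8 tests passed after Benjamini-Hochberg adjustment. HOXC came closest in set A. LK2 had 26.1 kb and NCI-H520 20.1 kb, above all 11 other lines, which ranged from 0 to 17.1 kb with a median of 9.10 kb. The means were 23.1 ± 4.23 kb (SD, n = 2) and 9.15 ± 5.88 kb (SD, n = 11), with an exact permutation p of 0.0128, the smallest that this design allows, and an adjusted p of 0.103. Without scaling the difference was 6.34 kb (exact permutation p = 0.218) and the sets overlapped, since HARA had 18.3 kb and LK2 13.1 kb.

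For HOXA, set A had 52.5 ± 46.6 kb (SD, n = 2) and the other lines 19.97 ± 20.5 kb (SD, n = 11), with an exact permutation p of 0.0641 and an adjusted p of 0.133. The sets overlapped, and the SD of set A is that between LK2 (85.4 kb) and NCI-H520 (19.6 kb); without LK2 the difference was -0.367 kb. For HOXB the means were 20.7 ± 15.0 kb (SD, n = 2) and 10.3 ± 7.39 kb (SD, n = 11; exact permutation p = 0.115, adjusted 0.185). For HOXD they were 8.13 ± 3.87 kb (SD, n = 2) and 5.48 ± 4.66 kb (SD, n = 11; exact permutation p = 0.487, adjusted 0.650).

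Between sets B and C the HOXC means were 14.3 ± 2.77 kb (SD, n = 3) and 7.20 ± 5.60 kb (SD, n = 8), with an exact permutation p of 0.0667. The HOXD means were 9.69 ± 4.91 kb (SD, n = 3) and 3.90 ± 3.71 kb (SD, n = 8), with an exact permutation p of 0.0606. Both had an adjusted p of 0.133, and in each the sets overlapped. The HOXA means were 20.8 ± 1.80 and 19.7 ± 24.4 kb (exact permutation p = 0.952), and the HOXB means 10.7 ± 1.60 and 10.2 ± 8.78 kb (exact permutation p = 0.897). The spread in set C was wider than in set B in both, since set C held NCI-H2887 (77.4 kb in HOXA) and the lines with least coverage.

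**Figure D4:**
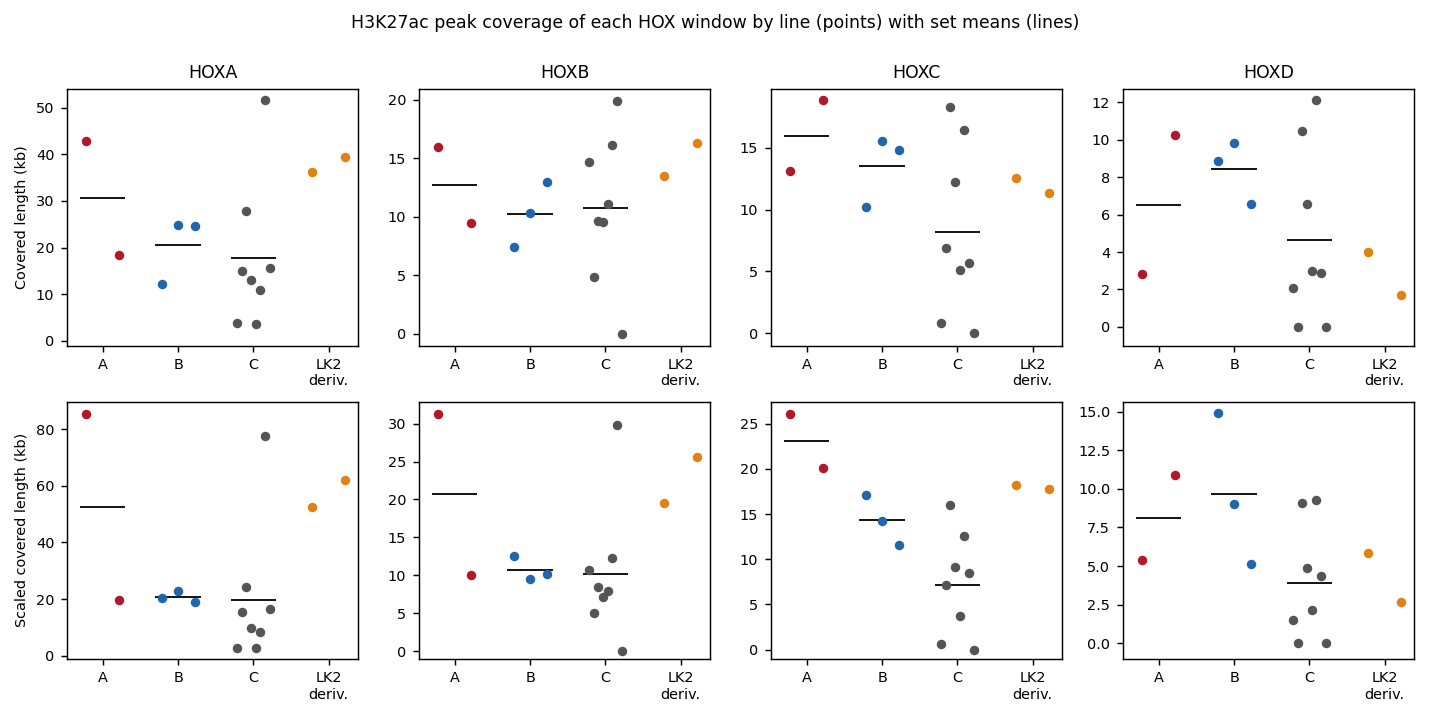
Covered length as listed (top) and scaled to an equal list total (bottom), in kb, for each line (points) in each HOX window, by set, with set means as black lines; the LK2 derivatives are shown apart. In HOXC both set A lines lie above the other 11 unmodified lines only after scaling, and in HOXA 1 line of set A and 1 of set C stand high.

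Position along the clusters was tested with limma in bins of 10 kb over the genome, on log2(scaled covered bp + 200). Of 72 bins that overlap the HOX windows, 33 passed the filter on mean covered length. The filter uses the mean over all 13 lines. Of the 33 bins, 32 also pass on the mean of the 11 lines outside set A and 1 passes through set A alone. For set A minus set B, 0 of 33 bins were called (limma, adjusted p under 0.05), where 7.46% of all 33710 bins tested were called in either direction. An unadjusted p under 0.05 was reached by 3 HOX bins (9.09%) and 20.3% of all bins tested. For set A minus set C, 1 bin was called, the one that passes through set A alone, with a background of 8.61%; 7 (21.2%) had an unadjusted p under 0.05, against 22.5% of all bins. For set B minus set C, 0 were called, with a background of 0.208%; 4 (12.1%) had an unadjusted p under 0.05, against 11.9% of all bins. The HOX shares were thus near or below those of all bins. The 3 contrasts share lines. The median log2 difference over the 33 bins was 0.64, 1.04 and 0.80 in this order, beside -0.21, -0.49 and 0.11 over all bins tested.

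The called bin lies in the low-numbered part of HOXC (chr12:54420001-54430000), 20 to 30 kb from the edge beside HOXC4, the lowest-numbered gene of that cluster. Its scaled covered length was 3.96 kb in LK2 and 2.22 kb in NCI-H520. In set B it was 0.968 kb in HCC2814, 0.457 kb in HCC95 and 0 in KNS62. In set C it was 1.08 kb in HARA, 0.768 kb in NCI-H2887 and 0 in the other 6. Set A did not overlap either set. The mean over the 11 lines outside set A was 0.298 kb, below the filter of 0.4 kb, and the bin entered the test only because LK2 and NCI-H520 raised the mean to 0.727 kb. Once tested, the bin was therefore bound to have a higher mean in set A than in the other 11 lines, and its values are given as a description. The means of sets A and C were 3.09 and 0.231 kb, a difference of 3.37 on the log2 scale (SE 0.93), and the difference from set B was 2.57 (SE 1.08). The call did not hold in 10 of the 19 other settings that tested this bin, the one without the filter included (limma adjusted p = 0.0525; range over all 19, 0.00814 to 0.320).

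The bin chr7:27210001-27220000, inside the wide domain, had a scaled length, which can exceed the bin, of 19.4 kb in LK2, 15.0 kb in NCI-H2887 and 0 to 4.29 kb in the other 11 lines. It did not pass for set A minus set C (log2 3.83, SE 1.51, limma adjusted p = 0.153), where NCI-H2887 is a set C line. This bin was chosen after its values had been seen.

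Few factor peaks lay in the clusters: 30 in 10 lists, at 20 separate sites. Sox2 gave 8 peaks in NCI-H520, 5 in HCC95, 4 in LK2_GFP, 3 in KNS62, 2 each in LK2 and HCC2814 and 1 in LK2_DNp63. Per Mb these were 1.03 times (LK2_DNp63) to 2.90 times (NCI-H520) the genome's density of the same list. That order depended on list length: among the 4217 top-scored Sox2 peaks of each list, NCI-H520, HCC95 and HCC2814 had 0 in the windows, and LK2, KNS62, LK2_GFP and LK2_DNp63 had 1 each. The 4 p63 peaks of LK2_DNp63 were 5.52 times its density, and the 1 Brn2 peak of LK2 was 0.905 times, with 0 in NCI-H520. With so few peaks per list these ratios carry a wide counting error. Brn2 chromatin was prepared differently (a second cross-linker and micrococcal nuclease), and the part of that in its low number was not tested. Of the 30 peaks, 24 overlapped an H3K27ac peak of their own line by at least 1 bp, and 22 by at least 50% of the factor peak. The share over all factor peaks of these lists was not computed, so the count is not a trait of the clusters.

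The site in most lists was in HOXA at 72.7 to 74 kb (chr7:27204742-27206019). It was a Sox2 peak in LK2, LK2_GFP and LK2_DNp63 and a p63 peak in LK2_DNp63. By score the Sox2 peaks were in the top 10.7%, 7.10% and 14.3% of their lists, and the p63 peak in the top 49.9%. LK2 was the only one of the 13 unmodified lines with H3K27ac there, and the site lies inside the wide domain. A second Sox2 site of LK2 and LK2_GFP lay at 68.5 to 69.9 kb (chr7:27200493-27201876). It overlapped part of the stretch at 68 to 69 kb, marked in 12 lines, and ran on into 69 to 70 kb, marked in LK2 alone. Its peaks ranked lower, in the top 81.2% and 47.2%. LK2_DNp63 had no Sox2 peak there, but its Sox2 list was the shortest, with 4217 peaks against 12034 in LK2_GFP.

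NCI-H520, HCC95 and KNS62 shared another HOXA Sox2 site, at 78.8 to 79.4 kb (chr7:27210811-27211373), which was acetylated in 7 lines, these 3 and LK2 among them. LK2 had H3K27ac and no Sox2 peak at this site. The Sox2 peaks of LK2 and its derivatives in HOXA thus lay at other positions than those of the other lines with Sox2 ChIP. This describes only 1 or 2 HOXA peaks per list of LK2 and its derivatives. Of the 20 factor sites in all windows, 14 were in 1 list, and the share of unshared Sox2 peaks over the genome was not computed. The remaining 5 HOXA sites were each in 1 Sox2 list.

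In HOXB, a Sox2 peak of LK2_GFP overlapped the only Brn2 peak, that of LK2 (chr17:46652372-46652822), which was in the top 36.5% of its list. Neither peak lay under an H3K27ac peak of its own line. NCI-H520 had Sox2 peaks at 59 to 59.5 kb and 97 to 97.4 kb, the latter in a region acetylated in 10 lines. HCC95 had 2 Sox2 peaks in the flanks, at -17.7 to -17.4 kb and 217.3 to 217.6 kb, outside its own H3K27ac. LK2_DNp63 had a p63 peak at 149.7 to 150.3 kb (chr17:46755716-46756337), in the high-numbered part, at a site where no line had H3K27ac.

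In HOXC, NCI-H520 and LK2_GFP shared a Sox2 site at 76.7 to 77.5 kb (chr12:54372463-54373332), acetylated in HARA, KNS62, LK2 and NCI-H520, and HCC2814 had a Sox2 peak at 71 to 71.4 kb. In HOXD, a site at 12.5 to 13.5 kb (chr2:177042463-177043451) held Sox2 peaks of NCI-H520 and HCC2814 and a p63 peak of LK2_DNp63, and was acetylated in 6 lines. NCI-H520 had 2 neighbouring Sox2 peaks at 76.4 to 77.3 kb, inside the HOXD region acetylated in set A alone. The other p63 peak was at 84.1 to 84.8 kb, acetylated in 7 lines.

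LK2_DNp63 and LK2_GFP had 1 library each, so their differences have no replicate check. Their H3K27ac lists covered 36.6 and 33.8 Mb. The length shared over the genome was not computed, so the values below cannot be set against the usual difference between these lists. HOXA coverage was 36.2 kb in LK2_DNp63 and 39.5 kb in LK2_GFP, with 34.5 kb shared, 4.99 kb in LK2_GFP alone and 1.72 kb in LK2_DNp63 alone. In HOXB 12.1 kb was shared, with 4.22 and 1.40 kb on each side, and in HOXC 8.20 kb, with 3.12 and 4.33 kb. In HOXD the order was turned, with 4.02 kb in LK2_DNp63 and 1.72 kb in LK2_GFP. Of the 2 p63 peaks in HOXD, that at chr2:177043020-177043451 overlapped an LK2_DNp63 H3K27ac peak of 958 bp only in part. The other lay under one of 1468 bp. LK2_GFP had no H3K27ac peak at these positions. Both LK2 replicates had peaks at those positions, however. Across the windows the derivatives had a Jaccard index of 0.707, in the range between LK2 replicate 1 and either derivative (0.643 and 0.733) and below that of the LK2 repeats.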

How the data were processed

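Peak lists of 27 samples were used. The 16 input samples were not analysed here. The authors deposited, for each peak, its position and a score of unstated scale, used here for ranks alone. Per the submitters' processing notes, Bowtie2 and hg19 (GRCh37) were used; per the peak names in the deposited files, peaks were called with MACS. Not given in the sources used here are the caller's version, its threshold and how inputs entered. The files hold no read counts, so depth is unknown.

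Of 652792 peaks, 2092 outside chromosomes 1 to 22 and X were left out. Covered length was summed per window and scaled to an equal list total (53.0 Mb). Each line counted as 1 replicate. Nothing says that repeat libraries are separate cultures, and p-values reflect the spread between these samples alone, which may be technical. Sets were compared with exact two-sided permutation tests over lines (Python 3.11.15, numpy 2.4.6, pandas 2.3.3), adjusted by Benjamini-Hochberg over 8 tests. Bins of 10 kb with a mean of at least 400 bp were tested with limma 3.58.1 (R 4.3.3; trend, pseudocount 200 bp, adjusted p under 0.05), checked on simulated data. Alternatives were scaling, flanks, the 16470 top-scored peaks of each H3K27ac list, bin size, pseudocount, filter, the samples fitted, and each line or repeat library left out.

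Named were all clusters in every line, the called bins, the widest peak of each cluster, regions found in all lines or in 1 set alone, and the factor peaks (in HOXA, with over 10, those in 2 or more lists). The clusters, sets and lists were chosen with earlier results of these data known. Cofactor, Polycomb and cell type marker genes were not analysed here, since that needs an annotation of hg19. RefSeq sequences were matched by symbol (20 of 39 genes).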

Additional observations from a re-analysis of the deposited data

Results flagged for a closer look

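NCI-H2887 stood apart from the other 7 lines of set C in 2 clusters. Its scaled H3K27ac covered length was 77.4 kb in HOXA, where the next line had 24.2 kb, and 29.9 kb in HOXB, where the next had 12.3 kb. In both the gap, 0.712 and 0.588 of the set's range, was larger than Dixon's critical value for 8 samples. Such a value is passed by chance in about 1 of 20 groups, and 4 clusters were examined. Neither passed without scaling, an alternative added after the data had been seen: the lengths were 51.6 kb, with HARA next at 27.8 kb (0.498 of the range), and 19.9 kb, with LC-1/SQSF next at 16.1 kb (0.191 of the range). In HOXC and HOXD the line was within the range of set C, with 8.52 and 4.33 kb scaled.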

How the results depend on the processing

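None of the 8 covered-length tests passed after adjustment in any setting. For set A minus the other lines, the difference in kb over settings with 1 line or repeat library left out ranged from -0.367 to 65.5 in HOXA, -0.239 to 20.97 in HOXB, 10.99 to 16.97 in HOXC and -0.085 to 5.39 in HOXD. The lowest values in HOXA and HOXB were without LK2, and that in HOXD without NCI-H520. HOXC was above p = 0.05 without either line (exact permutation p = 0.0833, the smallest possible then) and unscaled (6.34 kb). For set B minus set C the ranges were -1.29 to 9.38 in HOXA, -0.937 to 3.33 in HOXB, 5.72 to 8.49 in HOXC and 3.18 to 8.06 in HOXD. HOXA turned negative without HCC2450 (-1.29), Calu-1 (-1.28), LC-1/SQSF (-0.479) or HCC2279 (-0.276). HOXB did so without SQ-1 (-0.937), HCC2814 (-0.388) or EBC-1 (-0.216), and unscaled (-0.493). Unadjusted p fell to 0.0333 (exact permutation) for HOXC without HARA, and for HOXD without HARA or LC-1/SQSF.

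The set A minus set C count of 1 HOX bin (limma) became 0 with a 50-bp pseudocount, without the filter or without scaling, and 4 with a 1000-bp pseudocount. With 1 line or library left out it ranged from 0 (without LK2, NCI-H520, HCC2450, Calu-1, EBC-1 or HCC2279) to 4 (without HARA); it was 2 without LC-1/SQSF or LK2 replicate 1, and 3 without NCI-H2887 or NCI-H520 replicate 2. The set A minus set B count of 0 became 2 with only those sets fitted and 1 with equal numbers of top peaks. The set B minus set C count was 0 in all settings run. Of all called bins for set A minus set C, 58.3% were higher in set A, but 38.8% without scaling, where the median log2 difference of all bins went from -0.49 to -0.83. The 30 factor peaks became 8 with equal list lengths and 27 without flanks. Causes of these shifts were not tested. No paired analysis was possible because the replicate numbers name repeat libraries of 2 different lines, which were averaged. Depth is unknown, so no peak in a window cannot be told from too few reads.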
